A study of Mus musculus with 6 samples.

Results

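The CCAAT/enhancer-binding protein genes Cebpa, Cebpb, Cebpd and Cebpg and the macrophage lineage factor genes Spi1 and Runx1 were followed on all 6 arrays of a study of IκBβ-deficient macrophages. Every probe set annotated to 1 of these symbols was taken, which gave 14 probe sets for 6 genes, of 20380 probe sets for 12393 genes with a single symbol. Bone marrow-derived macrophages of strain C57BL/6J were grown for 7 days in medium with 30% L929 supernatant, a source of the growth factor CSF-1, and kept in 1 µg/ml lipopolysaccharide (LPS) for 0 h, 1 h or 5 h. The groups were IκBβ knockout at 0 h, 1 h and 5 h and wild type at 0 h, 1 h and 5 h, with 1 Affymetrix Mouse Genome 430A array each. LPS, a component of the outer membrane of Gram-negative bacteria, is sensed by TLR4, and IκBβ is an inhibitor and cofactor of NF-κB. The number of mice behind an array and their age were not given in the sources used here.

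CEBP proteins bind DNA as pairs through a basic region and a leucine zipper, and the family members can pair with each other and compete for the same sites. In myeloid development CEBPα works with PU.1, the ETS-family protein encoded by Spi1, and with RUNX1 to set up the monocyte and granulocyte programmes. CEBPβ and CEBPδ are known as factors of the acute-phase and LPS response, and CEBPγ, which lacks a strong activation domain, acts mainly as a partner of other basic leucine zipper proteins.

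RefSeq places Cebpa at chromosome 7, 35119293 to 35121928, and Cebpg on the same chromosome at 35046422 to 35056566, 62.7 kb away (build GRCm38.p6). Cebpb lies at chromosome 2, 167688915 to 167690432, Spi1 on the same chromosome at 91082374 to 91115759, Cebpd at chromosome 16, 15887286 to 15889545, and Runx1 at chromosome 16, 92601466 to 92826074. The promoter windows of the gene that fell most after LPS, of the gene that was high throughout and rose further, and of the neighbour of Cebpa are shown 5′ to 3′ from 250 bases before to 50 bases after the RefSeq start. They were copied from RefSeq's GRCm38.p6 table, chr7:35119043-35119342 on the plus strand for Cebpa, chr2:167688665-167688964 on the plus strand for Cebpb and chr7:35056517-35056816 on the minus strand for Cebpg. Capitals mark the cyclic AMP response element (CRE) core TGACG on either strand and the TATA box TATAAA.
Cebpa: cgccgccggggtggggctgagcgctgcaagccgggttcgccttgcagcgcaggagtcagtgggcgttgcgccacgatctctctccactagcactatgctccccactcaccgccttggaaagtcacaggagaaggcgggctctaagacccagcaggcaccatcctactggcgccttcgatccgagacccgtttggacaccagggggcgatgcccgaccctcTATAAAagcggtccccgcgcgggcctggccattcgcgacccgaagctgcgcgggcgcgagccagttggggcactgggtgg
Cebpb: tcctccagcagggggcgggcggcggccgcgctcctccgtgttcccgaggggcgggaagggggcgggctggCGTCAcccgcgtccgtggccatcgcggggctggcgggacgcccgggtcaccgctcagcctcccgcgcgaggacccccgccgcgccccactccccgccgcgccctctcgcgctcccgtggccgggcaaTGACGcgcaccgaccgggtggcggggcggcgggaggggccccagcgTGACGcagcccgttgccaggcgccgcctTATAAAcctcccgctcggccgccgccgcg
Cebpg: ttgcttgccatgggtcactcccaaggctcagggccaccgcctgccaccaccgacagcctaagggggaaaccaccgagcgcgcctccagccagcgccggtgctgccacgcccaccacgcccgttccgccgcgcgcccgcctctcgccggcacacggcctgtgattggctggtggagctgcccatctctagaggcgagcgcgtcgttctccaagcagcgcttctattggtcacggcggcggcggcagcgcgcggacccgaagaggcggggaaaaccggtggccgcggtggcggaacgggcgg
The Cebpb window held the CRE core 3 times, starting 180, 53 and 7 bases before the RefSeq start, and a TATA box at base 22 of the transcript. The Cebpg window held neither, and the Cebpa window held 1 TATA box, starting 30 bases before the start, and no CRE core. Over all 32851 windows of this table, 20.8% held a CRE core and 13.6% a TATA box on either strand. The CEBP motif TTGCNNAA (10.8% of all windows), the STAT motif TTCNNNGAA (8.3%), the PU.1 core GAGGAA (28.3%) and the NF-κB motif (4.51%) had no match in these 3 windows, on either strand. Runx1 has 2 windows, at its distal and its proximal start, and the proximal one held 1 PU.1 core, 46 bases before the start. Windows matched 4 of the 6 genes. G and C made up 80.7% of the Cebpb window, 71.7% of the Cebpg window and 67.3% of the Cebpa window.

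The arrays were of macrophages by their markers: Csf1r, the CSF-1 receptor gene, read 12870 to 17300, and Adgre1, which encodes F4/80, 14060 or more on all 6 arrays. Of 14 granulocyte and precursor genes measured, 4 exceeded an array median anywhere, and the other 10, Elane, Mpo and Kit among them, were at 80.3 or less on all arrays. Of those 4, Mmp8 read 524.5 to 2248 and S100a8 reached 1135. The label check Nfkbib, the IκBβ gene, read 30.5, 135.8 and 56.1 in knockout, against 477.4, 3330 and 5007 in wild type. Whether its probes lie within the deleted sequence was not given in the sources used here. Xist was at 2149 or more on the knockout arrays and at 80.4 or less on the wild-type arrays, and Eif2s3y, a Y-linked gene, at 10.7 or less in knockout and 569.7 or more in wild type. The knockout RNA thus reads as female and the wild-type RNA as male, so genotype and sex cannot be told apart in these mice. On these arrays the median of all 13101 tested probe sets moved with the scaling: at 5 h it was −0.48 on the deposited scale, 0.28 after centring each array on its median and −0.12 after quantile normalization, and 29.4%, 62.8% and 44.0% of the calls were higher. At 1 h 53.6%, 70.7% and 63.6% were higher. Array medians were 117, 98.7 and 65.2 in knockout and 113, 105 and 70.8 in wild type at 0 h, 1 h and 5 h.

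By 5 h of LPS Cebpa had fallen while the brightest probe sets of Cebpb and Cebpd had risen, on the arrays of both genotypes. On the deposited scale most of the Cebpb rise was present at 1 h (1.10, against 1.50 at 5 h). After median centring these changes were 1.27 and 2.26. Probe set 1418982_at of Cebpa read 1829, 1002 and 44.9 at 0 h, 1 h and 5 h in knockout macrophages. In wild-type macrophages it read 2131, 1142 and 76.7. Both 5 h arrays lay far below all the others, and the knockout array of 5 h was below its array median of 65.2. Relative to 0 h, the 5 h signal stood at −5.35 on the log2 scale in knockout and −4.80 in wild type. The change shared by the genotypes was −5.07 (SE 0.19, adjusted p = 0.000404, lower in 2 of 2 genotypes), a level 33.6 times lower. Only 0.168% of the 13101 probe sets tested had a lower change, and the median of all of them was −0.48. In RNA of whole cultures, fewer cells with a transcript and less RNA per cell cannot be told apart. Markers of B cells were lower at 5 h as well, in 4 of 4 tested genes (median −1.62), where 53.5% of all genes were lower (median −0.57). After median centring 2 of the 4 were lower (median −0.855), where 3201 of all 13101 probe sets were lower. The summed signal of the B cell markers was 6815, 5798 and 2236 in knockout and 6650, 5373 and 2304 in wild type, in order of time. Ighm, the immunoglobulin heavy chain gene, read 3571, 2563 and 303.9 in knockout and 3371, 2308 and 268.3 in wild type (−3.60 at 5 h, adjusted p = 0.000404), while Cd79a, Ms4a1 and Pax5 were at 45.3 or less on all arrays. The part of such cells in the fall of Cebpa was not tested.

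At 1 h Cebpa stood at −0.87 in knockout and −0.90 in wild type, each relative to 0 h. The shared change of −0.88 (SE 0.19) did not pass the threshold of 0.05 (adjusted p = 0.0656), nor did it in 10 of 15 alternatives. Among those 10 were median centring (−0.71, adjusted p = 0.0772), no filter (adjusted p = 0.178) and no genotype term (adjusted p = 0.105). It passed with quantile normalization (−0.96, adjusted p = 0.0482) and with the pseudocount in place of the floor (−0.87, adjusted p = 0.0352). It also passed with a prior that follows the mean signal (adjusted p = 0.0161) and without either 5 h array. With 1 array left out in turn the change was −1.04 to −0.73. From 1 h to 5 h the fall was 4.19 (SE 0.19, adjusted p = 0.000787). On the log2 scale the later interval thus held the larger share of the fall of this transcript, which encodes a factor that commits progenitors to the granulocyte and monocyte lines.

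**Figure D1:**
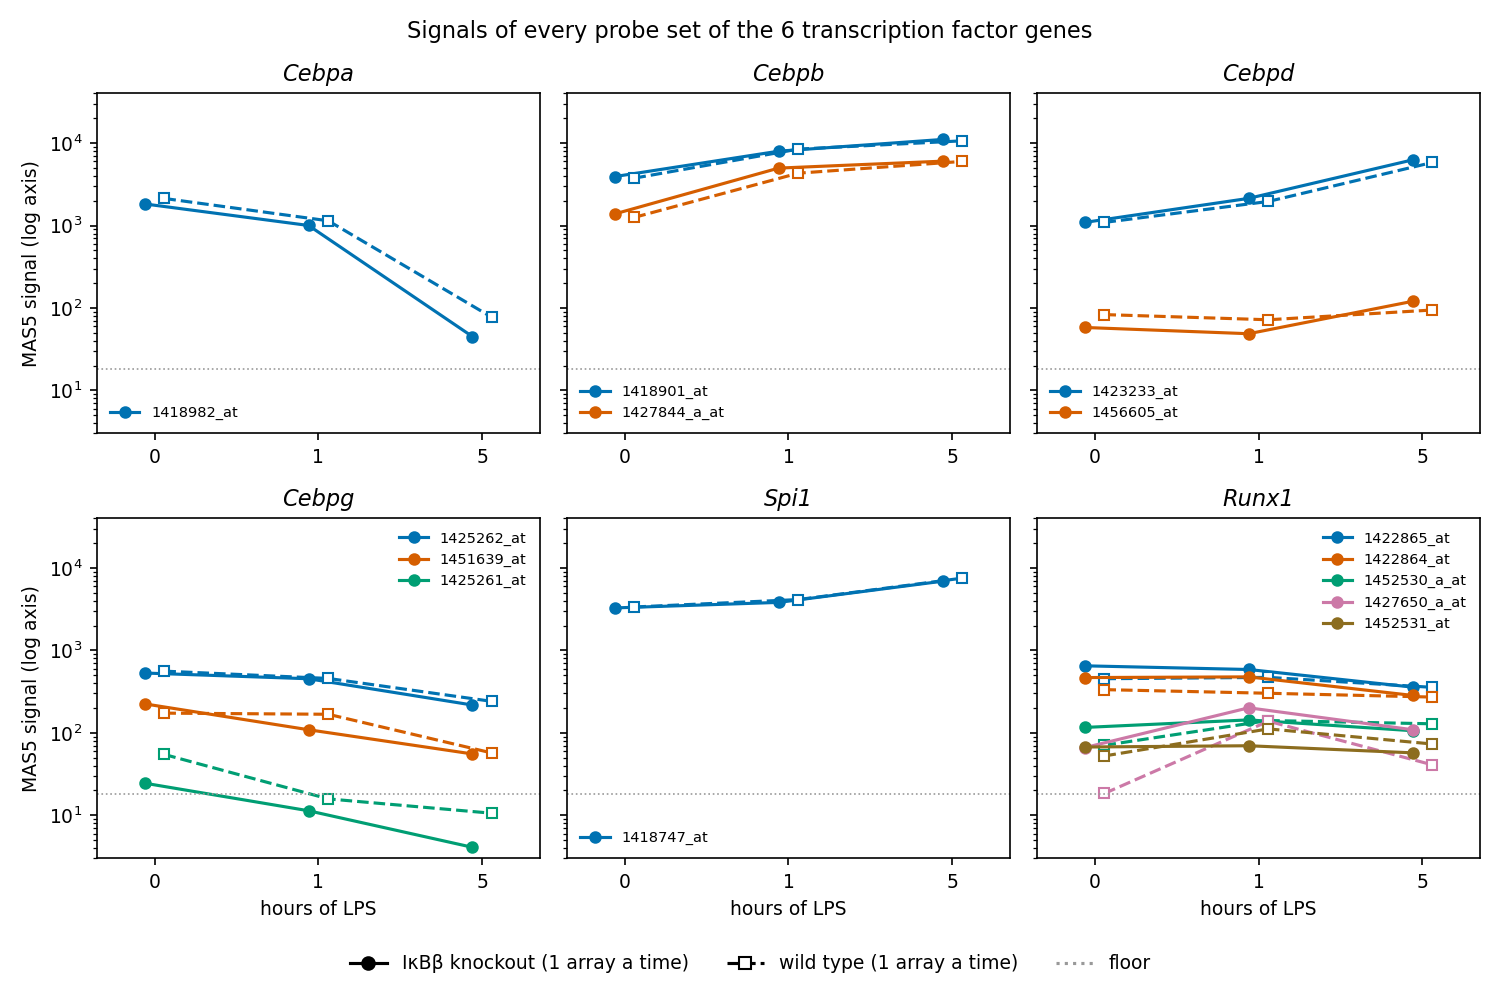
MAS5 signal on a log axis against hours of LPS for each probe set of the 6 genes, with filled circles and solid lines for the 3 knockout arrays, open squares and dashed lines for the 3 wild-type arrays, 1 array a point, and the floor of 18.2 dotted. Cebpa drops to 44.9 in knockout and 76.7 in wild type at 5 h, while the brightest probe sets of Cebpb, Cebpd and Spi1 climb in both genotypes.

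Cebpb encodes a factor first described for binding the Il6 promoter, and its single messenger RNA gives long activating and short inhibitory proteins, which an array cannot separate. Its brightest probe set, 1418901_at, read 3928, 7984 and 11080 in knockout, in order of time, and 3762, 8462 and 10660 in wild type. Both 1 h arrays lay above both 0 h arrays, and both 5 h arrays above those. The shared change was 1.10 at 1 h (SE 0.11, adjusted p = 0.0143, 2.14-fold) and 1.50 at 5 h (SE 0.11, adjusted p = 0.000857, 2.83-fold), higher in 2 of 2 genotypes at both times. After median centring the 5 h change was 2.26. The 1 h call was lost without any 1 of the 0 h and 1 h arrays (adjusted p = 0.105 to 0.12).

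The other Cebpb probe set, 1427844_a_at, read 1384, 4978 and 6042 in knockout and 1257, 4320 and 5999 in wild type. Its shared change was 1.81 after 1 h (SE 0.12, adjusted p = 0.00549) and 2.19 after 5 h (SE 0.12, adjusted p = 0.000475), and the 1 h call was lost without either 1 h array (adjusted p = 0.0646 and 0.0709). From 1 h to 5 h the gain was 0.40 on the brighter probe set (SE 0.11, adjusted p = 0.0368) and 0.38 on this one (SE 0.12, adjusted p = 0.0475). Its size depended on the processing: over the alternatives it was 0.26 to 0.99 on the brighter probe set and 0.15 to 0.96 on this one. It passed in 8 of 15 alternatives on the brighter and 4 of 13 on this one. Neither late gain passed with quantile normalization (adjusted p = 0.117 and 0.308) or without any single array (0.0613 to 0.239).

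Cebpd, whose product is known to amplify persistent TLR4 signals in mouse macrophages, rose at 1 h and again by 5 h. Probe set 1423233_at read 1092, 2137 and 6261 in knockout and 1092, 1960 and 5821 in wild type at 0 h, 1 h and 5 h. The 0 h signals of the genotypes were equal to 4 digits, and the 5 h signals stood above all others. The shared rise was 0.91 at 1 h (SE 0.11, adjusted p = 0.0208, 1.87-fold) and 2.47 at 5 h (SE 0.11, adjusted p = 0.000419, 5.53-fold). Between 1 h and 5 h it rose by 1.56 (SE 0.11, adjusted p = 0.00117). The 1 h call was lost without any single array (adjusted p = 0.0501 to 0.161).

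The other Cebpd probe set, 1456605_at, was dim, at 48.7 to 120.4 on the 6 arrays, and above the array median on 2 of them. It read 58.0, 48.7 and 120.4 in knockout and 83.1, 71.95 and 94.4 in wild type. Its shared change was −0.23 at 1 h (SE 0.27, adjusted p = 0.59) and 0.62 at 5 h (SE 0.27, adjusted p = 0.105). The 5 h value passed after quantile normalization (1.31, adjusted p = 0.0138) and after median centring (1.38, adjusted p = 0.00804), and without the wild-type 5 h array (1.06, adjusted p = 0.0105). The rise of Cebpd at 1 h thus rests on the bright probe set: with the mean of both it was 0.34 (adjusted p = 0.23).

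Set against each other within a genotype, the changes of Cebpb and Cebpa moved apart by 1.89 on the log2 scale at 1 h and 6.84 at 5 h in knockout, and by 2.07 and 6.30 in wild type. For Cebpd and Cebpa the gap was 1.84 and 7.87 in knockout and 1.74 and 7.21 in wild type. The changes of Cebpd and Cebpb differed at 1 h by −0.06 in knockout and −0.33 in wild type, and by 1.02 and 0.91 at 5 h. These are differences between changes on single arrays, with no test, and the signals of different probe sets do not compare the abundance of the transcripts. The opposite courses were present in both genotypes.

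**Figure D2:**
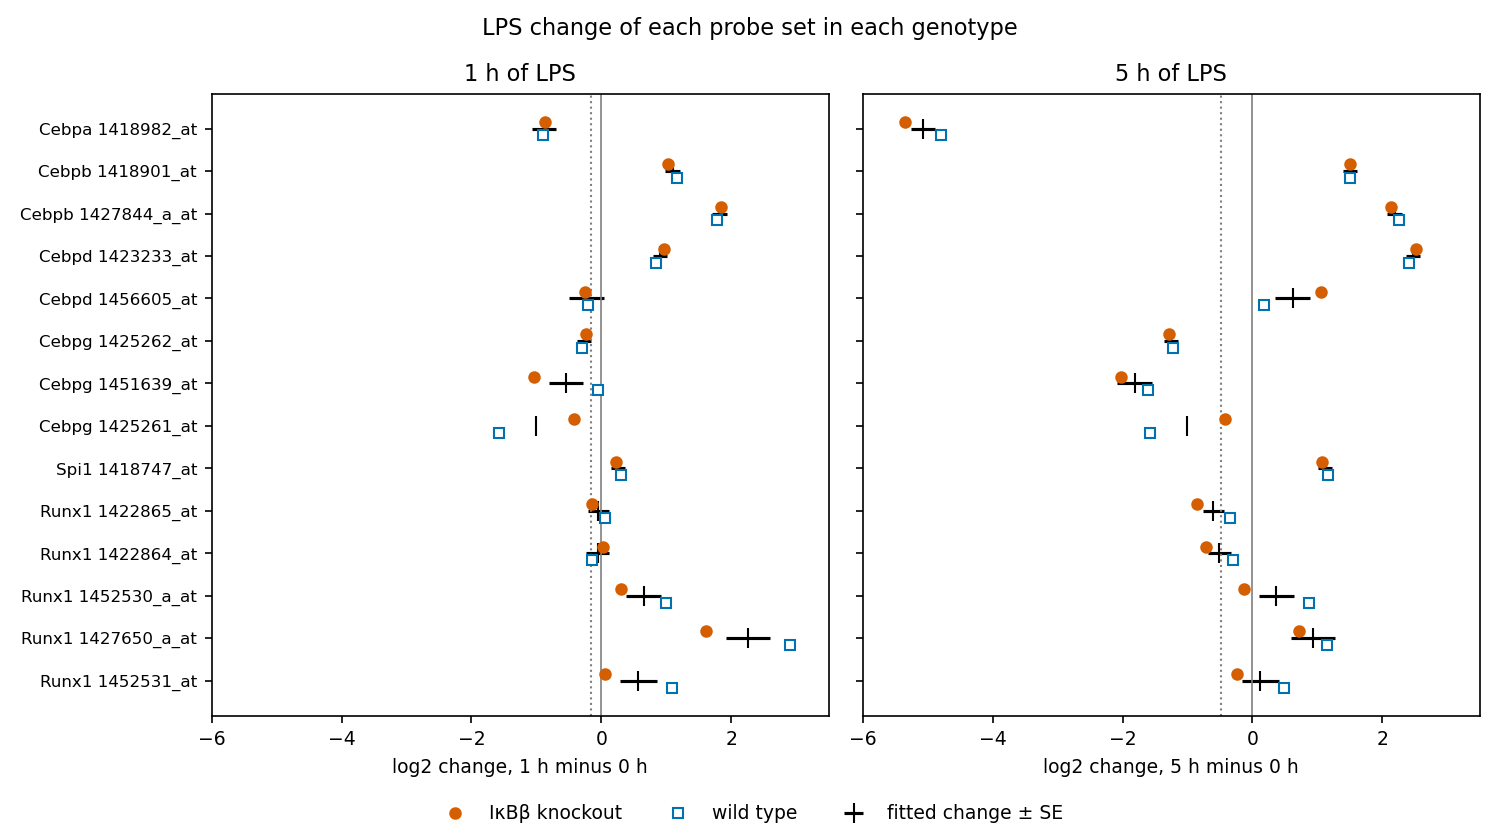
Log2 change at 1 h (left) and 5 h (right) of LPS relative to 0 h for the 14 probe sets, with circles for knockout, squares for wild type and ticks with bars for the shared change ± SE (no SE for 1425261_at, which was not tested). The dotted line is the median of all tested probe sets, −0.17 at 1 h and −0.48 at 5 h, and at 5 h Cebpa lies at −5.07 against 2.47 for the brightest Cebpd probe set.

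Cebpg, the neighbour of Cebpa on chromosome 7, was also lower at 5 h, but by less. Of all tested probe sets 49.8% were lower at 5 h. A lower change than that of Cebpg was present in 25.4% of them for 1425262_at and 14.3% for 1451639_at. The brightest Cebpg probe set, 1425262_at, read 531.2, 452.7 and 217.2 in knockout and 560.0, 456.7 and 240.4 in wild type at 0 h, 1 h and 5 h. The shared change was −0.26 at 1 h (SE 0.11, adjusted p = 0.198) and −1.26 at 5 h (SE 0.11, adjusted p = 0.00122), 2.39 times lower. After median centring the 5 h change was −0.49 and after quantile normalization −0.74, both past the threshold.

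Probe set 1451639_at of Cebpg read 224.5, 108.9 and 55.4 in knockout and 173.2, 167.9 and 56.8 in wild type. At 1 h the knockout array was at −1.04 and the wild-type array at −0.05 relative to 0 h, and at 5 h the shared change was −1.81 (SE 0.27, adjusted p = 0.00473), or −1.05 after median centring and −1.11 after quantile normalization. The remaining Cebpg probe set, 1425261_at, was at 24.5, 11.3 and 4.08 in knockout and 54.6, 15.8 and 10.6 in wild type. It was below the array median on all 6 arrays and above the floor of 18.2 on 2 of them, and it was not tested.

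Spi1 kept a high level and rose late. Its only probe set, 1418747_at, read 3275, 3820 and 6907 in knockout and 3362, 4136 and 7522 in wild type at 0 h, 1 h and 5 h. Both 5 h arrays were above the other 4. The shared change was 0.26 at 1 h (SE 0.11, adjusted p = 0.193) and 1.12 at 5 h (SE 0.11, adjusted p = 0.00152, 2.17-fold). The 5 h change was 1.88 after median centring and 0.85 after quantile normalization, past the threshold in both. From 1 h to 5 h it rose by 0.86 (SE 0.11, adjusted p = 0.00414). Spi1, the partner of Cebpa in setting up the myeloid programme, therefore did not follow Cebpa down: its change exceeded that of Cebpa by 6.42 in knockout and 5.96 in wild type at 5 h.

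Runx1, which encodes the DNA-binding subunit of core binding factor, was measured by 5 probe sets, with 5 h values of both signs. The brightest, 1422865_at, read 649.8, 586.3 and 358.3 in knockout and 453.0, 470.5 and 356.2 in wild type. Its shared change was −0.05 at 1 h (SE 0.16, adjusted p = 0.863) and −0.60 at 5 h (SE 0.16, adjusted p = 0.0293). That fall is close to the median of −0.48 of all probe sets, and it stood at 0.16 after median centring (adjusted p = 0.407) and −0.15 after quantile normalization (adjusted p = 0.422). It was also lost without the knockout array of 0 h, 1 h or 5 h or the wild-type array of 1 h (adjusted p = 0.0647 to 0.186). Probe set 1422864_at read 467.9, 477.2 and 284.2 in knockout and 334.0, 301.9 and 271.4 in wild type, with −0.51 at 5 h (SE 0.18, adjusted p = 0.0628).

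The 3 dimmer Runx1 probe sets had positive 1 h values, of which 1 passed. Probe set 1427650_a_at read 66.1, 201.1 and 109.0 in knockout and 18.4, 138.3 and 40.9 in wild type at 0 h, 1 h and 5 h, and rose by 2.26 at 1 h (SE 0.34, adjusted p = 0.0324). The wild-type 0 h signal was barely above the floor of 18.2, and the change was 1.61 in knockout and 2.91 in wild type. Without the wild-type 0 h array it was 1.82 (adjusted p = 0.112), and without any of the other 5 arrays its adjusted p was 0.054 to 0.0942. At 5 h it stood at 0.94 (SE 0.34, adjusted p = 0.0656). It passed there after quantile normalization (1.44, adjusted p = 0.0169), after median centring (1.70, adjusted p = 0.00455) and with the pseudocount (0.67, adjusted p = 0.046). It also passed without the knockout 0 h array (1.37, adjusted p = 0.0373) or either 1 h array (adjusted p = 0.0196), and was 0.50 without the wild-type 0 h array (adjusted p = 0.283).

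Probe set 1452530_a_at of Runx1 read 116.2, 143.4 and 106.0 in knockout and 70.5, 141.0 and 128.6 in wild type. Probe set 1452531_at read 67.2, 69.7 and 57.1 in knockout and 52.4, 111.6 and 73.2 in wild type. Neither passed at 1 h (0.65 and 0.57; adjusted p = 0.196 and 0.247) or at 5 h (0.37 and 0.12; adjusted p = 0.282 and 0.713). Both passed at 5 h after quantile normalization (1.11, adjusted p = 0.0154, and 0.81, adjusted p = 0.0479). Over the 5 probe sets the direction of Runx1 at 5 h depends on the probe set and on the scaling, and the mean of the 5 was 0.06 (adjusted p = 0.79).

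Of the 14 probe sets 13 passed the filter on dim probe sets and were tested. At 1 h 4 were higher and 0 lower, where limma called 5.32% of all 13101 tested probe sets higher and 4.6% lower. At an unadjusted p under 0.05, 1 was lower, Cebpa. The 4 were both of Cebpb, the bright one of Cebpd and 1427650_a_at of Runx1, and 1 was left without the filter (1427844_a_at of Cebpb), 0 without the knockout or the wild-type 1 h array, 1 without either 0 h array and 2 without either 5 h array. At 5 h 4 were higher (both Cebpb, the bright Cebpd and Spi1) and 4 lower (Cebpa, both tested Cebpg and the brightest Runx1), against 20.8% and 49.8% of all tested probe sets. The 5 h calls of Cebpa, Cebpb, the bright Cebpd, Cebpg and Spi1 held in each of the alternatives run. After median centring 8 probe sets were higher and 3 lower, where 5413 of all 13101 were higher and 3201 lower. From 1 h to 5 h 4 were higher and 5 lower, against 19% and 41.8% of all tested probe sets.

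**Figure D3:**
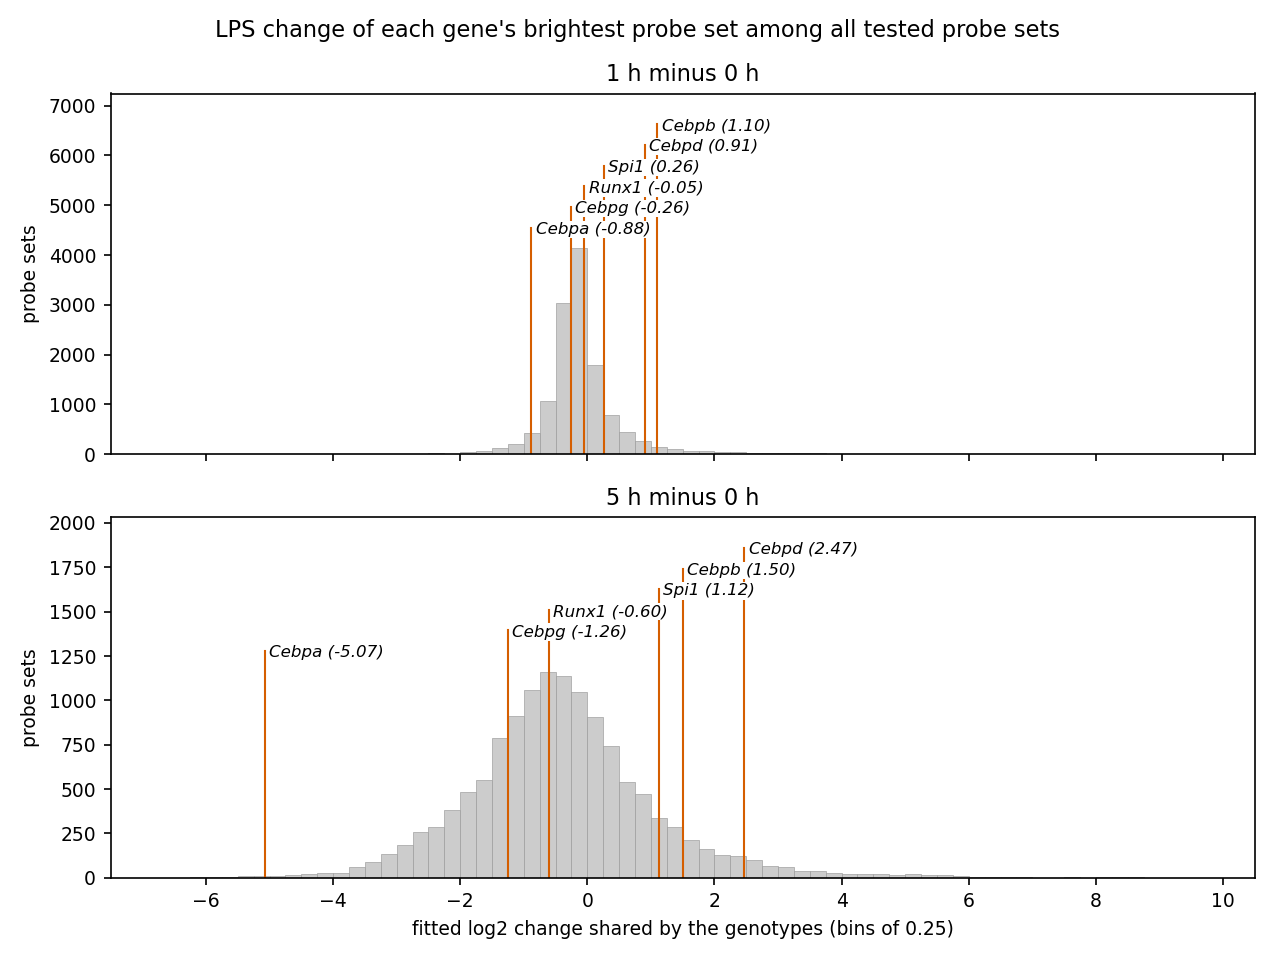
Histograms of the shared log2 change of all 13101 tested probe sets at 1 h (top) and 5 h (bottom) of LPS in bins of 0.25, with lines for the brightest probe set of each of the 6 genes and its change in brackets. At 1 h the 6 lines stay between −0.88 and 1.10, and at 5 h Cebpa (−5.07) lies in the lower tail while Cebpd (2.47) lies in the upper one.

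No probe set of the 6 genes passed the test of a difference between knockout and wild type shared by the 3 times, where limma called 0% of all tested probe sets higher and 0.0305% (4 of 13101) lower. At an unadjusted p under 0.05, 1104 of all tested probe sets and 2 of these 13 differed, both of Runx1. Over the brightest probe sets of all genes limma called 0% higher and 0.0133% lower, and 0 genes of the lists described here. Knockout minus wild type was −0.39 for Cebpa (SE 0.16, adjusted p = 0.593), lower in knockout at 3 of 3 times, with −0.22, −0.19 and −0.77 at 0 h, 1 h and 5 h. It was 0.01 (SE 0.09) and 0.12 (SE 0.09) for the probe sets of Cebpb, 0.08 (SE 0.09) for the bright one of Cebpd, −0.08 (SE 0.09) for the brightest one of Cebpg and −0.09 (SE 0.09) for Spi1, with adjusted p of 0.699 to 0.975. In the same test the label check Nfkbib (−5.02, adjusted p = 0.3) and Xist (5.86, adjusted p = 0.0754) did not pass either. Eif2s3y did (−5.33, adjusted p = 0.0271). With these errors the test does not show that the genotypes were alike.

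Among the Runx1 probe sets, 1427650_a_at was higher in knockout at 3 of 3 times, by 1.85, 0.54 and 1.41 at 0 h, 1 h and 5 h, and its shared difference was 1.27 (SE 0.28, adjusted p = 0.523, unadjusted p = 0.00906). Probe sets 1422865_at and 1422864_at were also higher in knockout at 3 of 3 times, with shared differences of 0.28 (SE 0.13, adjusted p = 0.603) and 0.40 (SE 0.15, adjusted p = 0.591). For 1422865_at the gap was 0.52 at 0 h, 0.32 at 1 h and 0.01 at 5 h. Whether the LPS change itself differs between the genotypes cannot be tested with 1 array a group, and the 2 courses are given side by side.

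Of the other CEBP partner genes, Trib1 peaked at 1 h. It encodes a pseudokinase known to bring CEBPα to degradation. It read 196.2, 1182 and 174.9 in knockout and 189.5, 1095 and 174.8 in wild type at 0 h, 1 h and 5 h. It rose by 2.56 at 1 h (SE 0.11, adjusted p = 0.00276) and on the deposited scale was back near its start at 5 h (−0.14, adjusted p = 0.298). After median centring its changes were 2.74 at 1 h and 0.62 at 5 h. Batf, a basic leucine zipper factor that pairs with JUN proteins, read 352.1, 530.7 and 3892 in knockout and 296.0, 633.3 and 3827 in wild type, a rise of 3.58 at 5 h (SE 0.16, adjusted p = 0.000419). Atf3, a stress-induced repressor, rose by 1.09 at 1 h (adjusted p = 0.0293) and 1.20 at 5 h (adjusted p = 0.00336). Ddit3, the CHOP gene, whose product pairs with CEBP proteins, fell by 0.95 at 5 h (adjusted p = 0.00417) but stood at −0.19 after median centring.

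Over the 13 genes listed as CEBP family and partners, with Cebpa to Cebpg among them, 11 had a probe set with a single symbol and 9 passed the filter. At 1 h 5 genes of these rose, none fell and 4 missed the threshold (median 0.84), against 5.11% higher and 5.19% lower over the brightest probe sets of 7499 genes (median −0.18). At 5 h 4 genes rose, 3 fell and 2 missed the threshold (median 0.25), against 19.2% higher and 53.5% lower (median −0.57). After median centring the 5 h counts were 6 and 2, where 5413 of all 13101 probe sets were higher and 3201 lower. Trib2 and Trib3 were measured but not tested, at 8.71 to 34.45 and 15.6 to 90.0.

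Among the transcription factors listed for the myeloid lineage, 32 of 36 measured genes were tested. At 1 h 6 rose and 2 fell (median 0.19), where 5.11% of all genes were higher and 5.19% lower. At 5 h 14 rose and 10 fell (median 0.33), where 19.2% of all genes were higher and 53.5% lower. After median centring 22 rose and 8 fell, where 5413 of all 13101 probe sets were higher and 3201 lower. Hhex, a homeobox gene of blood progenitors, fell by 3.08 at 1 h (adjusted p = 0.00363) and 2.68 at 5 h (adjusted p = 0.000538), with 1214, 137.8 and 161.3 in knockout and 1209, 149.5 and 221.2 in wild type. Irf8, a partner of PU.1, first fell and then rose: 3579, 1865 and 9140 in knockout and 3614, 1733 and 7463 in wild type, or −1.0 at 1 h (adjusted p = 0.0239) and 1.20 at 5 h (adjusted p = 0.00203).

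Egr1, Egr2 and Ets2, factor genes of the first response to a stimulus, rose at 1 h by 2.87, 2.79 and 2.72 (adjusted p = 0.00362, 0.0136 and 0.00587). Fli1, an ETS factor like PU.1, fell by 3.31 at 5 h (adjusted p = 0.000404), with 1773, 1320 and 182.2 in knockout and 2008, 1414 and 198.8 in wild type. Rxra, the retinoid X receptor gene, fell by at least 4.62 at 5 h (adjusted p = 0.0012), as its wild-type signal of 11.7 was under the floor. Its signals were 597.4, 373.2 and 39.6 in knockout and 732.0, 434.7 and 11.7 in wild type.

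Gfi1, which encodes a transcriptional repressor active in the granulocyte line, rose by at least 4.81 at 5 h (adjusted p = 0.000937): it read 12.4, 15.4 and 325.2 in knockout and 1.94, 43.7 and 801.8 in wild type, with both 0 h signals under the floor. The other granulocyte gene that rose at 5 h was S100a8 (3.15, adjusted p = 0.00294), and Mmp8 fell by 1.47 (adjusted p = 0.000806). The summed signal of the 14 granulocyte and precursor genes was 2704, 2326 and 2589 in knockout and 1910, 1777 and 2141 in wild type in order of time, and the part of such cells in these values was not tested. Etv6, another ETS factor, rose by 2.45 (adjusted p = 0.00044) and Stat3, which carries the signals of the IL-6 and IL-10 receptors, by 2.32 (adjusted p = 0.000657) at 5 h. Cbfb, the partner of Runx1, read 2258, 2011 and 2935 in knockout and 2138, 1552 and 2667 in wild type, and did not pass at 5 h (0.35, adjusted p = 0.0697).

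**Figure D4:**
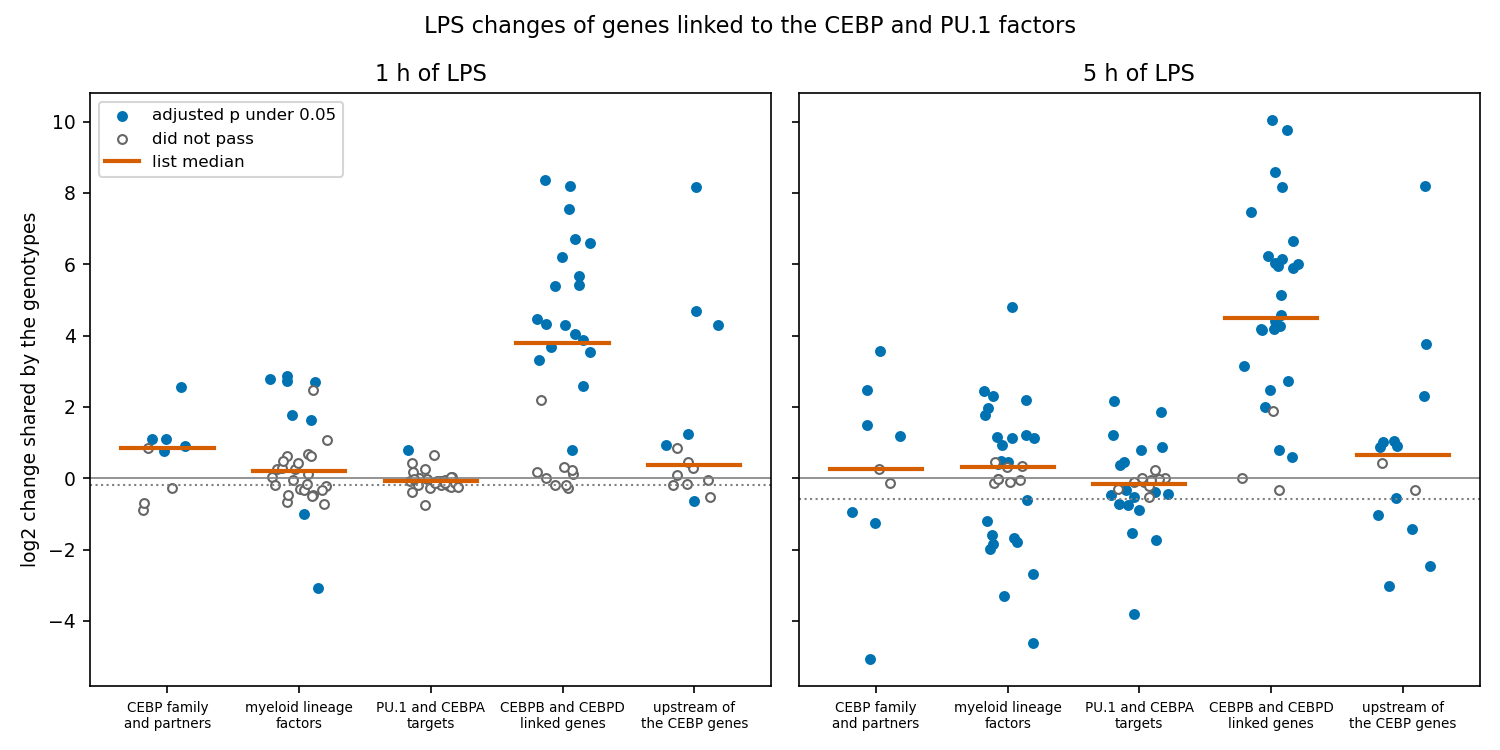
Shared log2 change at 1 h (left) and 5 h (right) of LPS of the tested genes of 5 lists, 1 point a gene (its brightest probe set), filled where the adjusted p was under 0.05, with bars for list medians and a dotted line for the median of all genes (−0.18 and −0.57). The median of the genes linked to CEBPB and CEBPD was 3.78 at 1 h and 4.49 at 5 h, and that of the PU.1 and CEBPA targets −0.08 and −0.16.

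Of the genes known as targets of PU.1 and CEBPα in macrophages, 28 were tested. At 1 h 1 rose and 0 fell, beside 5.11% higher and 5.19% lower over all genes. At 5 h 7 rose and 11 fell (median −0.16), beside 19.2% and 53.5% over all genes. After median centring 16 rose and 3 fell (median 0.60), where 5413 of all 13101 probe sets were higher and 3201 lower. After quantile normalization 5 rose and 14 fell (median −0.325), where 3791 of all probe sets were higher and 4830 lower. Il6ra, the IL-6 receptor gene, fell by 3.81 at 5 h (adjusted p = 0.0021), with 988.7, 440.4 and 92.85 in knockout and 635.3, 511.8 and 34.3 in wild type. Mrc1, the mannose receptor gene, fell by 1.74 (adjusted p = 0.000682) and Coro1a, which encodes an actin-binding protein of leukocytes, by 1.53 (adjusted p = 0.000833). The scavenger receptor gene Msr1 and the Fc receptor genes Fcgr1 and Fcgr2b rose at 5 h by 2.16, 1.85 and 1.22 (adjusted p = 0.000671, 0.000698 and 0.00184). Cd14, the LPS co-receptor gene, was the 1 gene that rose at 1 h (0.80, adjusted p = 0.0366). Csf1r stood at −0.31 at 5 h (adjusted p = 0.0736) and at 0.45 after median centring.

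Genes of the LPS response that are linked to CEBPβ and CEBPδ mostly rose. Of 28 tested genes 19 rose and 0 fell at 1 h (median 3.78), where 5.11% of all genes were higher and 5.19% lower. At 5 h 25 rose and 0 fell (median 4.49), where 19.2% of all genes were higher and 53.5% lower. At 1 h Ptgs2 and Il6 led, with rises of at least 8.35 and 8.19 (adjusted p = 0.00116 for both), and Il1b rose by 7.54 (adjusted p = 0.00234). Lcn2, which encodes an iron-sequestering protein of host defence, rose by 8.59 at 5 h (adjusted p = 0.000404): it read 34.1, 171.4 and 12850 in knockout and 32.3, 233.0 and 12740 in wild type. Tlr9 and Hamp did not pass at 5 h (−0.33 and 1.88; adjusted p = 0.102 and 0.127), and all 4 Csf2 signals of 0 h and 5 h lay below the floor. These genes respond to several other factors, and the list was assembled with earlier results of these arrays known.

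Another list held genes of CREB, STAT3 and NF-κB signalling, drawn up as upstream of the CEBP genes. It also holds Socs3 and Myc, described below, so its counts are not those of CEBP regulators alone. Among its 14 tested genes, 5 rose and 1 fell at 1 h (median 0.37), where over all genes 5.11% were higher and 5.19% lower. At 5 h 7 rose and 5 fell (median 0.65), where over all genes 19.2% were higher and 53.5% lower. After median centring 9 rose and 3 fell at 5 h (median 1.41), where 5413 of all 13101 probe sets were higher and 3201 lower. Socs3, the feedback inhibitor of STAT3 signals, rose by 8.17 at 1 h (adjusted p = 0.00631) and 8.18 at 5 h (adjusted p = 0.000723), and Rel by 4.69 (adjusted p = 0.0022) and 3.76 (adjusted p = 0.00043). Myc, a gene that CEBPα is known to repress, rose by 4.28 at 1 h (adjusted p = 0.00763). Il6st, the signal chain of the IL-6 receptor, fell by 2.46 (adjusted p = 0.000652), Mapk14, the p38α kinase gene, by 3.03 (adjusted p = 0.000767) and Sp1 by 1.43 (adjusted p = 0.00275) at 5 h. Crem fell at 1 h by 0.64 (adjusted p = 0.0498) and stood at −0.46 after median centring, where 0 genes of this list were lower at 1 h. Creb1, which binds the CRE, read 143.7, 149.9 and 292.0 in knockout and 160.6, 173.1 and 330.8 in wild type and rose by 1.03 at 5 h (adjusted p = 0.00178).

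The genes closest in course to each factor were sought among 7021 probe sets of 4950 genes that were above the floor on all 6 arrays and spanned at least 1 log2 unit, by Pearson's r over the 6 arrays. The 6 points share the LPS course and the scaling of the arrays, so r is a description, and no p is given. Closest to Cebpa were Acp2, Cdk2ap1, Cd300ld, Xpa and Lamtor4 (r = 0.9995 to 0.9996), with 5 h changes of −1.24 to −2.37. Closest to Cebpb were Hspa1a, Traf1, Peli1, Nupr1 and Hcar2 (0.9978 to 0.9997), and Hspa1a, the inducible HSP70 gene, read 93.8, 836.7 and 2426 in knockout and 81.4, 954.4 and 1943 in wild type. Closest to Cebpd were Ppp1r15b, Pgs1, Hsp90aa1, Denr and Myd88 (0.998 to 0.9996). Myd88, the adaptor of TLR4, read 1626, 2857 and 7198 in knockout and 1643, 2874 and 6281 in wild type.

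Closest to Cebpg were Dap, Scp2, Hs2st1, Rusf1 and 0610012G03Rik (r = 0.9995 to 0.9996). Closest to Spi1 were Anxa7, Eif4g2, Rnf14, Nr3c1 and Myadm (0.9983 to 0.9993), and Nr3c1, the glucocorticoid receptor gene, read 1424, 1644 and 3752 in knockout and 1367, 1873 and 4229 in wild type. For the brightest probe set of Runx1 the highest values were lower, 0.9721 to 0.9753, for Orai1, Retsat, Ubr2, Sf3b1 and Son. Orai1, a calcium channel gene, shared with Runx1 the higher level in knockout before LPS, with 833.5 in knockout and 608.0 in wild type at 0 h.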

How the data were processed

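RNA of 6 cultures was measured on 1 array each, with the arrays titled IkB taken as the knockout of the series' design text. The values are intensity: MAS5 signals on a linear scale, made by the authors per the submitters' processing notes, for 22690 probe sets. Neither the MAS5 version nor its scaling target was found in the labels. Trimmed by 2% at each end, the arrays averaged 500.2 to 500.3, so the deposited signals share this mean. Their medians differ, at 65.2 to 117. Probe sets were named through GEO's platform annotation (691 with several symbols and 1555 with none stayed unnamed), and positions and promoters came from RefSeq GRCm38.p6.

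Signals under the floor of 18.2, which is the 25th percentile over all arrays, were set to 18.2 and log2 was taken, so changes that reach it are bounds. The 13101 probe sets above their array's median on at least 1 array, without 64 controls, entered a limma 3.58.1 fit (R 4.3.3). The model held additive effects of genotype and of time, with 2 residual degrees of freedom and 2.23 prior ones. Rose and fell mean a Benjamini-Hochberg adjusted p under 0.05 over all of them. The LPS change is thereby the mean of both genotypes. Its error comes from how far the knockout and wild-type courses disagree, moderated over all probe sets. In that disagreement genotype, sex, animal and array cannot be told apart. It does not measure the spread between animals of a genotype, as the labels do not say which arrays share an animal. A listed gene is shown by its brightest probe set. On simulated data of 13101 probe sets, 2-fold changes were recovered in 55% of cases at 1 h, 50% at 5 h and 87% for genotype, and 4-fold changes in 95%, 94% and 98%. Few of the simulated probe sets carried a change, and the noise was drawn from the fitted errors. These shares may therefore not hold for the arrays. The number of arrays limits the precision.

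The genes, lists and tests were chosen with earlier results of these data known, and the 5 h against 1 h test after the values were seen. Named are all probe sets of the 6 genes, the 5 closest courses to each, up to 3 largest called rises and falls of each list and time, Nfkbib, Xist and Y-linked genes. Adgre1, Csf1r, Elane, Mpo, Kit, Ighm, Cd79a, Ms4a1, Pax5, Trib2, Trib3, S100a8, Mmp8, Cbfb, Tlr9, Hamp, Csf2, Creb1, Pf4, Cd74, H2-Aa, Flt3 and Zbtb46 were named outside this rule, after their values were seen. Other marker lists summed to 55.9 to 140.4 (T and NK cells), 114.6 to 229.1 (mast cells), 386.8 to 606.4 (fibroblasts), 7440.9 to 12170.4 (erythroid cells and megakaryocytes) and 23290.4 to 34643.1 (dendritic cells) on an array. Pf4 alone read 7227 to 12030 in the erythroid and megakaryocyte list. In the dendritic list Cd74 read 9776 to 11130 and H2-Aa 6478 to 8040, while Flt3 and Zbtb46 did not pass the filter. The part of such cells was not tested. Alternatives were a floor at the 10th percentile, a pseudocount of 16, median centring, quantile normalization, no filter, 1 value per gene (brightest or mean), no genotype term, a trended prior and each array left out.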

Additional observations from a re-analysis of the deposited data

Results flagged for a closer look

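The genotypes moved in opposite directions after LPS in 4 cases, all of Runx1 probe sets, and the difference was not tested, as each change rests on 2 arrays. At 1 h, 1422865_at stood at −0.15 in knockout and 0.05 in wild type (knockout minus wild type −0.20), and 1422864_at at 0.03 and −0.15 (0.17). At 5 h, 1452530_a_at stood at −0.13 in knockout and 0.87 in wild type (−0.998), and 1452531_at at −0.23 and 0.48 (−0.72).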

How the results depend on the processing

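No paired analysis was possible because the labels carry no replicate numbers and each group is 1 array. With each of the 6 arrays left out in turn, 110 to 467 probe sets were higher at 1 h (697 with all arrays) and 10 to 287 lower (603), 2057 to 2520 higher at 5 h (2722) and 4784 to 6075 lower (6527), and 0 to 0 differed between knockout and wild type in either direction. Of the 13 probe sets of the 6 genes, 0 to 2 were then higher (4 with all arrays) and 0 to 1 lower (0) at 1 h, and 4 to 6 higher and 3 to 5 lower at 5 h. The 1 h change was −1.04 to −0.73 for Cebpa, 1.03 to 1.17 for 1418901_at of Cebpb and 0.85 to 0.96 for 1423233_at of Cebpd, and the 5 h change of 1422865_at of Runx1 was −0.81 to −0.40.

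Without the filter on dim probe sets, 147 were higher and 87 lower at 1 h, 0 were lower in knockout, 1 of the 13 was higher at 1 h, and Cebpb (1.10), Cebpd (0.91) at 1 h and Runx1 (−0.60) at 5 h no longer passed (adjusted p = 0.054, 0.054 and 0.0988). With the trended prior, 1062 were higher and 1246 lower at 1 h, 9 higher and 10 lower in knockout, and Cebpa passed at 1 h (−0.88), 1 lower of the 13. Cebpa also passed at 1 h, as 1 lower of the 13, with the pseudocount (−0.87, adjusted p = 0.0352) and with quantile normalization (−0.96). With quantile normalization 8 of the 13 were higher at 5 h, where 3791 of all 13101 probe sets were higher, and Runx1 stood at −0.15. With median centring, 5413 were higher and 3201 lower at 5 h, 3 higher in knockout, 8 of the 13 were higher at 5 h, and 1422865_at of Runx1 turned to 0.16 at 5 h against 0 h and 0.0281 against 1 h. With 1 brightest probe set a gene, 407 were higher at 1 h, 1463 higher and 4055 lower at 5 h and 1 lower in knockout, as fewer features were tested. With the mean of a gene's probe sets these were 436, 1494, 4066 and 1, Cebpd stood at 0.34 at 1 h and Runx1 turned to 0.063 at 5 h. With the lower floor 1 was lower in knockout. Where no reason is given, the cause was not tested. Of the 14 probe sets, 1425261_at of Cebpg had signals under the floor of 18.2, so its changes are bounds, and 1427650_a_at of Runx1 had 1 signal of 18.4.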
